A study of Homo sapiens with 60 samples.

Results

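Coptidis Rhizoma water extract was compared at its medium dose (58 µg/mL) against its low dose (11.6 µg/mL) in HT29, a long-established human cell line of colorectal adenocarcinoma origin, 24 h after addition. The comparison rests on 6 of the 60 libraries of the study, 3 at each dose, chosen by their labels. The study profiled 6 herbal water extracts by RNA sequencing, each at 3 doses that step by 5-fold, beside vehicle and the kinase inhibitor wortmannin. For this extract the high dose (290 µg/mL) was the one that inhibited the cells by 20%, and the other 2 doses are successive 5-fold dilutions of it. Vehicle was DMSO, which the sample labels put at 0.1% and the series text at 2%. Neither text says whether the extract-treated cells also received DMSO, so the vehicle libraries serve here only as a reference level. A further 2 extracts in the same table served for comparison over a 5-fold step of their own, from 20 to 100 µg/mL: Zizyphi Fructus (jujube), whose library codes begin with the same number as those of Coptidis Rhizoma, and Scutellariae Radix (skullcap root). Nothing in the labels tells whether a group's 3 libraries are separate cultures. The p-values therefore reflect the scatter among libraries within the 20 groups of the study, which were fitted together, and possibly technical scatter only. The extract is a mixture, and HT29 is a single tumour line.

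Coptidis Rhizoma is the rhizome of goldthread, rich in isoquinoline alkaloids such as berberine, palmatine and coptisine. Berberine collects in mitochondria and inhibits complex I of the respiratory chain, and alkaloids of this family are known ligands of the aryl hydrocarbon receptor (AhR), a ligand-activated factor that switches on the cytochrome P450 genes CYP1A1 and CYP1B1. ATF4 is the transcription factor of the integrated stress response: phosphorylation of eIF2α slows translation in general but raises that of ATF4, which then drives amino acid synthesis, amino acid uptake and tRNA charging. Mitochondrial DNA is read as long transcripts of each strand, from which ribosomal RNAs, messenger RNAs and tRNAs are cut. All but 1 of its messenger RNAs come from the heavy-strand transcript, and MT-ND6 comes from the light strand.

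The 6 libraries held 17.4 to 33.6 M counts (M, 1e6), the smallest being medium replicate 3. None of them was among the 4 libraries of the series that stood apart on the second principal component. All 12 epithelial markers were present in each dose group, with summed levels of 11900 to 12700 counts per 1e6 counts (CPM) at the low dose and 11600 to 12600 CPM at the medium dose. Of the fibroblast markers, COL1A2 and PDGFRA were at 0, and the list summed to at most 2.79 CPM. The blood list summed to 1640 to 1890 CPM at the low and 1670 to 1730 CPM at the medium dose through LYZ, which intestinal epithelium also makes, while PTPRC, CD3E and HBB were each below 1 CPM. The endothelial list summed to at most 1.95 CPM and the neural list to at most 0.416 CPM. The hepatocyte list summed to 327 to 363 CPM, with ALB and APOA2 below 1 CPM. No marker of any of the 6 lists was called.

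From the low to the medium dose, HT29 cells raised genes of amino acid supply and of the AhR. Antioxidant genes were also raised, with far fewer calls in some alternative fits. They lowered 5 messenger RNAs encoded in mitochondrial DNA, while both mitochondrial ribosomal RNAs rose. Of 16609 genes tested by edgeR's quasi-likelihood test, 217 (1.31%) were called at a Benjamini-Hochberg adjusted p below 0.05. Of these, 158 (0.951% of all genes) were higher at the medium dose and 59 (0.355%) lower. Most changes were small: 11 genes at least doubled and 7 at least halved, and the median log2 change of all genes was 0.002. In all 217 the libraries of 1 dose lay wholly above those of the other, as they did in 3226 of all genes tested (19.4%). The number was 144 without low replicate 1, 113 in a fit of the 18 Coptidis and Zizyphi libraries and 481 from the 6 libraries alone. Without the 4 libraries that stood apart, 367 genes were called, among them all 217.

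**Figure D1:**
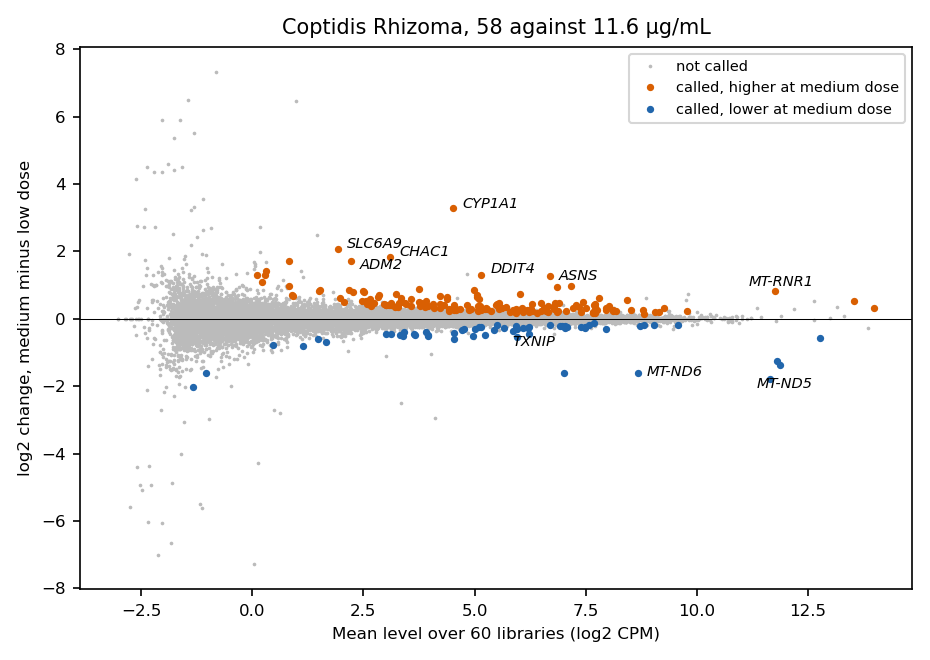
Each point is a gene, placed by its average level over the 60 libraries (log2 CPM) and its log2 change from the low to the medium dose, with genes called higher in orange and called lower in blue. The 158 genes called higher reach 3.29 for CYP1A1, and the lowest of the abundant genes called lower is MT-ND5 at -1.80.

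Genes of amino acid supply and the ATF4 programme rose together. Across 4 lists (ATF4 factors and feedback genes, amino acid and folate enzymes, amino acid transporters, cytosolic aminoacyl-tRNA synthetases), 40 of 61 distinct tested genes were called higher and 0 lower. They made up 25.3% of all genes called higher. The lists were written with earlier results of these data known, so the counts are a description.

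Among factors and feedback genes, 10 of 16 tested members were called higher, with a list median log2 change of 0.58. ATF4 itself stood at 267, 279 and 264 CPM in the low-dose libraries and 344, 369 and 338 CPM in the medium-dose libraries, a log2 change of 0.37 ± 0.06 (± approximate standard error throughout; edgeR adjusted p = 3.43e-05). The groups did not overlap, and the change was below the median of the list. CHAC1, an enzyme that degrades glutathione, was at 5.64, 5.46 and 5.04 CPM at the low dose and 20.9, 20.3 and 16.4 CPM at the medium dose. That is a log2 change of 1.84 ± 0.13 (edgeR adjusted p = 6.26e-16), and the low-dose libraries in turn lay above vehicle (2.82, 2.56 and 2.27 CPM). DDIT4, an inhibitor of the growth kinase mTORC1, went from 25.4, 25.6 and 25.2 CPM to 67.3, 66 and 55.8 CPM, a change of 1.31 ± 0.08 (edgeR adjusted p = 1.73e-18). SESN2, which also restrains mTORC1, went from 14.8, 13.4 and 15.3 CPM to 25.6, 21.5 and 22.9 CPM (log2 change 0.69 ± 0.09). TRIB3, a pseudokinase that feeds back on ATF4, went from 48.5, 46 and 46.8 CPM to 78.4, 78.7 and 76.9 CPM (log2 change 0.73 ± 0.06). In each of these genes the lowest medium-dose library was above the highest low-dose library. The remaining called members were VLDLR, ATF3, DDIT3, CEBPG and NUPR1, with log2 changes of 0.80, 0.87, 0.48, 0.28 and 1.29. NUPR1 and DDIT3, the latter encoding the stress factor CHOP, were low in level, with means of 1.78 and 8.96 CPM at the medium dose. Outside these lists, the peptide hormone gene ADM2 went from 2.78, 2.6 and 2.78 CPM to 8.17, 9.69 and 8.97 CPM (log2 change 1.71 ± 0.15, edgeR adjusted p = 1.81e-12). JDP2, a repressor of AP-1, went from 5.71, 5.88 and 5.99 CPM to 11.2, 10.2 and 9.98 CPM (log2 change 0.84 ± 0.10).

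Of the amino acid and folate enzymes, 10 of 15 tested were called higher, with a median log2 change of 0.33. ASNS (chromosome 7, 97852118 to 97872542 on GRCh38), which makes asparagine, had 85.9, 85.6 and 79.8 CPM at the low dose and 199, 201 and 204 CPM at the medium dose. The low-dose libraries were already above those of vehicle, at 61.8, 58.3 and 58.7 CPM. The change between doses was 1.26 ± 0.06 (edgeR adjusted p = 1.85e-22), a 2.4-fold difference. The serine pathway was called at each of its enzymes. PSAT1, its aminotransferase, went from 127, 127 and 129 CPM to 246, 253 and 255 CPM (log2 change 0.98 ± 0.05, edgeR adjusted p = 4.02e-21). PHGDH, the entry enzyme, changed by 0.58 ± 0.07 and PSPH, the phosphatase, by 0.36 ± 0.07. The mitochondrial folate enzymes MTHFD2, SHMT2 and MTHFD1L changed by 0.51, 0.33 and 0.29. CTH, which makes cysteine, went from 3.78, 4.08 and 3.21 CPM to 6.82, 5.9 and 6.77 CPM (log2 change 0.81 ± 0.12). GPT2, the mitochondrial alanine aminotransferase, went from 108, 111 and 111 CPM to 153, 156 and 151 CPM (log2 change 0.48 ± 0.04). PYCR1, of proline synthesis, changed by 0.24 ± 0.06. PCK2, the mitochondrial form of phosphoenolpyruvate carboxykinase, stood outside the list and went from 30.6, 28.9 and 30.3 CPM to 55.5, 55.6 and 50.3 CPM (log2 change 0.85 ± 0.09, edgeR adjusted p = 3.12e-10).

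Of the amino acid transporters, 8 of 12 tested were called higher. SLC7A5 and SLC3A2 form the leucine carrier LAT1. SLC7A5 went from 331, 326 and 327 CPM to 470, 483 and 488 CPM (log2 change 0.55 ± 0.05), and SLC3A2 from 188, 186 and 183 CPM to 236, 258 and 245 CPM (log2 change 0.41 ± 0.07). SLC7A11, the cystine importer that pairs with the same SLC3A2 chain, went from 180, 180 and 184 CPM to 283, 271 and 280 CPM (log2 change 0.62 ± 0.07, edgeR adjusted p = 8.36e-09). SLC1A4, a carrier of small neutral amino acids, went from 11.7, 11.8 and 12.2 CPM to 21.1, 22.9 and 21.6 CPM (log2 change 0.88 ± 0.09). The largest change of the list, named after its value was seen, was that of the glycine carrier SLC6A9, at 2.06 ± 0.24, from low levels of 1.03, 0.889 and 1.15 CPM to 3.71, 4.65 and 4.51 CPM. SLC43A1, SLC38A2 and SLC1A5 changed by 0.38, 0.26 and 0.23.

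Of the cytosolic aminoacyl-tRNA synthetases, which load amino acids onto tRNAs, 12 of 18 were called higher. Their changes were narrow, from 0.20 for LARS1 to 0.47 for SARS1, with a list median of 0.23. GARS1, the glycine enzyme, had 198, 203 and 197 CPM at the low dose and 270, 274 and 274 CPM at the medium dose (log2 change 0.45 ± 0.04, edgeR adjusted p = 2.26e-13). AARS1, the alanine enzyme, went from 155, 155 and 152 CPM to 202, 207 and 205 CPM (log2 change 0.41 ± 0.04), and YARS1, the tyrosine enzyme, from 200, 211 and 210 CPM to 261, 271 and 261 CPM (log2 change 0.35 ± 0.04). In all 3 genes the libraries of the doses did not overlap. In the fit of the 18 Coptidis and Zizyphi libraries alone, 7 synthetases and 5 transporters were called higher.

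**Figure D2:**
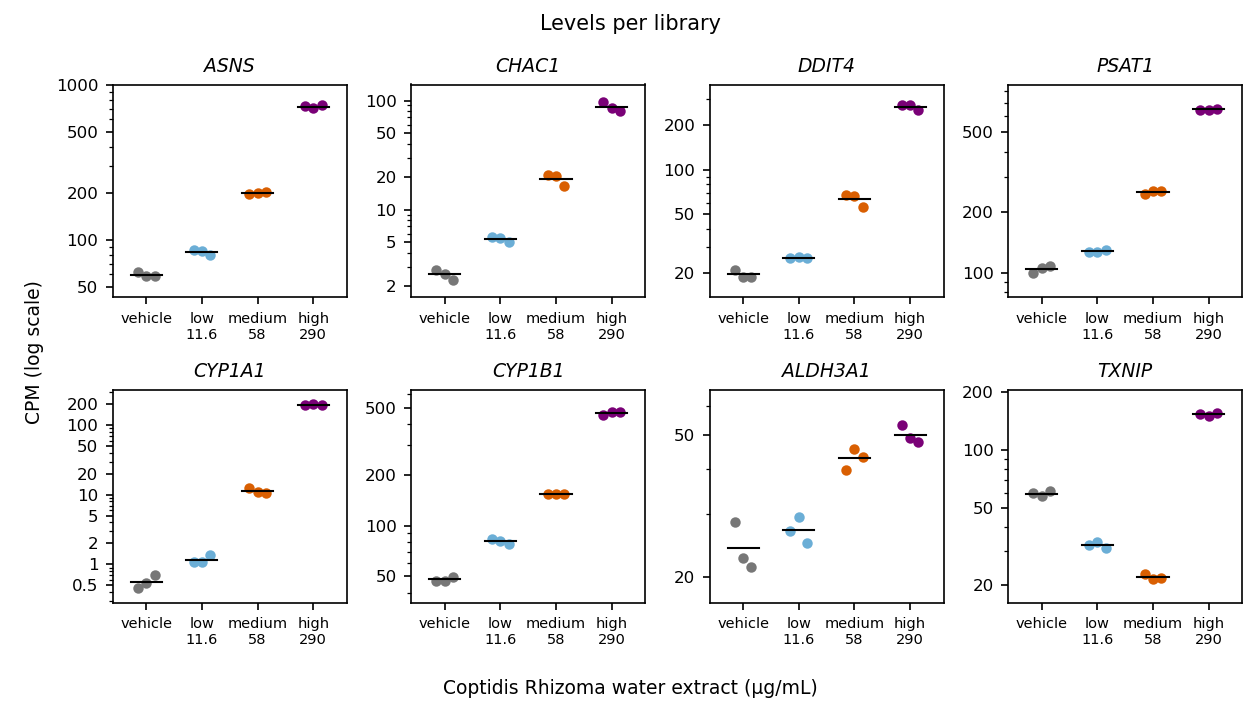
Points are the CPM of each library on a log axis, for vehicle and the low, medium and high dose of the extract (n = 3 each), and black lines are group means. In 7 of the 8 genes the means rise from low to medium to high dose, while TXNIP is lowest at the medium dose and highest at the high dose.

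The promoters of several of these genes hold the composite element that ATF4 binds with C/EBP partners. The motif searched was TGATGNAA on both strands of RefSeq promoter windows, from 250 bases before to 50 after each gene's start (GRCh38.p14). It occurred in 3.67% of all 27305 windows. These include genes that were not tested here, as do the shares of all windows given below for other motifs. Of the 61 genes of the 4 lists, 50 had a window matched by symbol and 15 of these held the motif. Of the 32 called genes with a window, 11 held it: AARS1, ASNS, ATF3, CARS1, CHAC1, IARS1, MARS1, MTHFD1L, NARS1, SLC3A2 and TARS1. Of the 118 genes called higher that had a window, in or out of these lists, 22 (18.6%) held it. A match is a description of the letters and no evidence of binding. The called factors, enzymes and synthetases with the smallest p and a match before the start are shown, 5′ to 3′ in the direction of transcription, with the motif or its reverse complement in capitals. The IARS1 stretch ends at the start.
CHAC1 (chr15:40953226-40953305, plus strand): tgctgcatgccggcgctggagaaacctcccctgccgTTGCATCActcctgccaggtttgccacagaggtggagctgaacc
ATF3 (chr1:212565180-212565259, plus strand): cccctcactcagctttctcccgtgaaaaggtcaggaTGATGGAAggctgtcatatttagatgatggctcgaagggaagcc
ASNS (chr7:97872433-97872512, minus strand): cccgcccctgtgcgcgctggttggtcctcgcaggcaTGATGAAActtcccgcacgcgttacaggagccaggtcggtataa
MTHFD1L (chr6:150866321-150866400, plus strand): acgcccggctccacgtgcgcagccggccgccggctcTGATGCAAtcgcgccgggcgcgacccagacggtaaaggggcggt
AARS1 (chr16:70289650-70289729, minus strand): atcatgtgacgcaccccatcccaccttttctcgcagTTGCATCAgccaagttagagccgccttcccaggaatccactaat
IARS1 (chr9:92293698-92293746, minus strand): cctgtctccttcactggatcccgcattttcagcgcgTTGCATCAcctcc
In the CHAC1, AARS1 and IARS1 stretches the motif lies on the other strand and reads TTGCATCA, and in MTHFD1L it reads TGATGCAA on the strand shown, the same 8 bases as a pair of complements. ASNS carries the variant TGATGAAA 68 bases before the start, and ATF3 TGATGGAA 191 bases before it.

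AhR targets and antioxidant genes rose beside the amino acid genes. Of the AhR list, 5 of 10 tested genes were called higher (CYP1A1, CYP1B1, ALDH3A1, NQO1 and TIPARP) and 0 lower, with a median log2 change of 0.29. CYP1A1 (chromosome 15, 74719542 to 74725610 on GRCh38), a monooxygenase that oxidises planar aromatic compounds, had the largest change of all called genes. It stood at 0.46, 0.533 and 0.695 CPM in vehicle, 1.07, 1.07 and 1.35 CPM at the low dose, 12.6, 10.8 and 10.4 CPM at the medium dose and 196, 198 and 194 CPM at the high dose. The groups did not overlap, and the change from low to medium was 3.29 ± 0.16 (edgeR adjusted p = 3.69e-22), a 9.78-fold difference. CYP1B1, its relative, went from 83.5, 81.3 and 77.5 CPM to 155, 153 and 154 CPM (log2 change 0.93 ± 0.08, edgeR adjusted p = 1.94e-12). Its antisense RNA CYP1B1-AS1 was also called, and the sources used here do not say whether counting used strand, so reads of the pair may not be told apart. The aldehyde dehydrogenase ALDH3A1 went from 26.9, 29.5 and 24.9 CPM to 39.9, 45.6 and 43.3 CPM (log2 change 0.66 ± 0.09), and TIPARP, which feeds back on the receptor, from 90.1, 85.1 and 86.7 CPM to 112, 112 and 118 CPM (log2 change 0.38 ± 0.08). The receptor's repressor AHRR was not called, at 4.78, 4.32 and 4.8 CPM at the low dose and 4.05, 3.57 and 4.87 CPM at the medium dose, and its libraries overlapped. The AhR core GCGTG was in 7 of the 8 promoter windows matched for this list, beside 36.3% of all windows, a short motif that many promoters hold.

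Of the targets of NRF2, the factor that answers oxidants and electrophiles, 10 of 20 were called higher and 19 of 20 had a log2 change above 0, with a median of 0.25. SLC7A11, NQO1 and TXNRD1 had the smallest p. SLC7A11 is also counted among the amino acid transporters, and NQO1 in the AhR list. NQO1, a quinone reductase that AhR also controls, went from 570, 609 and 578 CPM to 722, 762 and 733 CPM (log2 change 0.34 ± 0.06). TXNRD1, thioredoxin reductase, went from 402, 391 and 397 CPM to 472, 469 and 480 CPM (log2 change 0.26 ± 0.05). GCLC and GCLM, the 2 subunits of the enzyme that limits glutathione synthesis, changed by 0.22 ± 0.05 and 0.24 ± 0.06. AKR1C1 and AKR1C2 were called at 0.42 ± 0.10 and 0.45 ± 0.11, but are near-identical copies between which reads may have been divided. HMOX1, haem oxygenase, stood at 10.2, 9.69 and 10.6 CPM at the low dose and 11.2, 13.2 and 12.5 CPM at the medium dose and did not pass (edgeR adjusted p = 0.0935). Of this list, 5 members were called without low replicate 1, and only SLC7A11 in the fit of the 18 Coptidis and Zizyphi libraries. The antioxidant element TGACNNNGC was in 4 of the 15 promoter windows matched for this list, beside 13.6% of all windows. Of the 8 called genes with a window, 3 held it.

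Mitochondrially encoded RNAs moved in opposite directions. Both ribosomal RNAs were called higher, and of 13 messenger RNAs 5 were called lower and MT-CO3 higher. MT-RNR1, the RNA of the small ribosomal subunit (mitochondrial chromosome, 648 to 1601), had 16130, 16780 and 15800 CPM at the low dose and 29140, 29810 and 27860 CPM at the medium dose. This was a log2 change of 0.83 ± 0.08 (edgeR adjusted p = 1.23e-10), and both doses lay far above vehicle (1462, 1295 and 1334 CPM), whereas the high dose lay nearer to it (2648, 2498 and 2427 CPM). MT-RNR2, that of the large subunit, had 11440, 10200 and 10660 CPM in vehicle, 62010, 61970 and 59290 CPM at the low dose, 78550, 78300 and 70700 CPM at the medium dose and 11880, 11220 and 10840 CPM at the high dose. Its change from low to medium was 0.31 ± 0.08 (edgeR adjusted p = 0.0151), and the call was lost without low replicate 3, medium replicate 1 or medium replicate 2. The 2 RNAs together took 7.37 to 7.64% of all counts in the low-dose libraries and 9.52 to 10.3% in the medium-dose libraries, against 1.15 to 1.23% in vehicle and 1.37 to 1.51% at the high dose. Whether the library preparation selected polyadenylated RNA is not given in the sources used here, so a change in the amount of these RNAs and in their tails cannot be told apart in these counts.

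The messenger RNAs that fell were those of complex I subunits at both ends of the heavy-strand order, MT-ND6 and MT-CYB. MT-ND5 (12337 to 14148) had 6352, 5825 and 5731 CPM at the low dose and 1773, 1730 and 1648 CPM at the medium dose, a log2 change of -1.80 ± 0.13 (edgeR adjusted p = 1.35e-14). Vehicle lay between the doses, at 3065, 3113 and 3337 CPM. MT-ND2 had 5405, 5374 and 5044 CPM at the low dose and 2043, 2053 and 2051 CPM at the medium dose (log2 change -1.36 ± 0.11, edgeR adjusted p = 2.67e-12). The nuclear pseudogene MTND2P28 on chromosome 1 followed it, from 209, 205 and 187 CPM to 58, 66.9 and 71.3 CPM, and as a near copy of MT-ND2 it may share its reads. MT-ND1 had 5031, 5000 and 5158 CPM at the low dose and 1935, 2333 and 2082 CPM at the medium dose (log2 change -1.26 ± 0.16). MT-ND6, the light-strand messenger that meets the end of MT-ND5 on the opposite strand and whose reads may not be told apart from it there, had 817, 724 and 1032 CPM at the low dose and 329, 300 and 215 CPM at the medium dose (log2 change -1.61 ± 0.31, edgeR adjusted p = 0.00103). MT-CYB, of complex III, had 4196, 5904 and 6211 CPM at the low dose and 3386, 4019 and 3595 CPM at the medium dose (log2 change -0.57 ± 0.12, edgeR adjusted p = 0.00254). In these 6 genes no medium-dose library reached the lowest low-dose library. The call of MT-ND6 was lost in the 6 libraries alone and in the 9 Coptidis libraries with the replicate number as a block. That of MT-CYB was lost in both, in the 9 libraries without the block and without low replicate 3.

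None of the messengers between MT-ND2 and MT-ND5 was called lower. MT-CO3, a subunit of complex IV, had 4205, 4380 and 4088 CPM at the low dose and 6041, 5870 and 6232 CPM at the medium dose (log2 change 0.52 ± 0.11, edgeR adjusted p = 0.00544), both well under vehicle at 16210, 12910 and 12690 CPM. MT-ATP6, MT-ATP8, MT-ND4L and MT-ND4 had log2 changes of 0.52 ± 0.16, 0.63 ± 0.34, 0.74 ± 0.21 and 0.35 ± 0.14, none of which passed the test. MT-CO2 and MT-ND3 had 0.03 ± 0.14 and 0.04 ± 0.15, with overlapping libraries. MT-CO1 had 9354, 8942 and 8321 CPM at the low dose and 7351, 7587 and 7200 CPM at the medium dose, a change of -0.27 ± 0.08 that did not pass (edgeR adjusted p = 0.116). No gene was called among 25 nuclear subunits of the respiratory chain (median log2 change 0.01), 20 genes that control mitochondrial RNA and DNA (-0.05) or 13 of mitochondrial stress and quality control (0.01). Because ribosomal RNA took a larger share of counts at the medium dose, the fit was repeated without mitochondrial counts: 204 genes were then called, 202 of them among the 217.

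**Figure D3:**
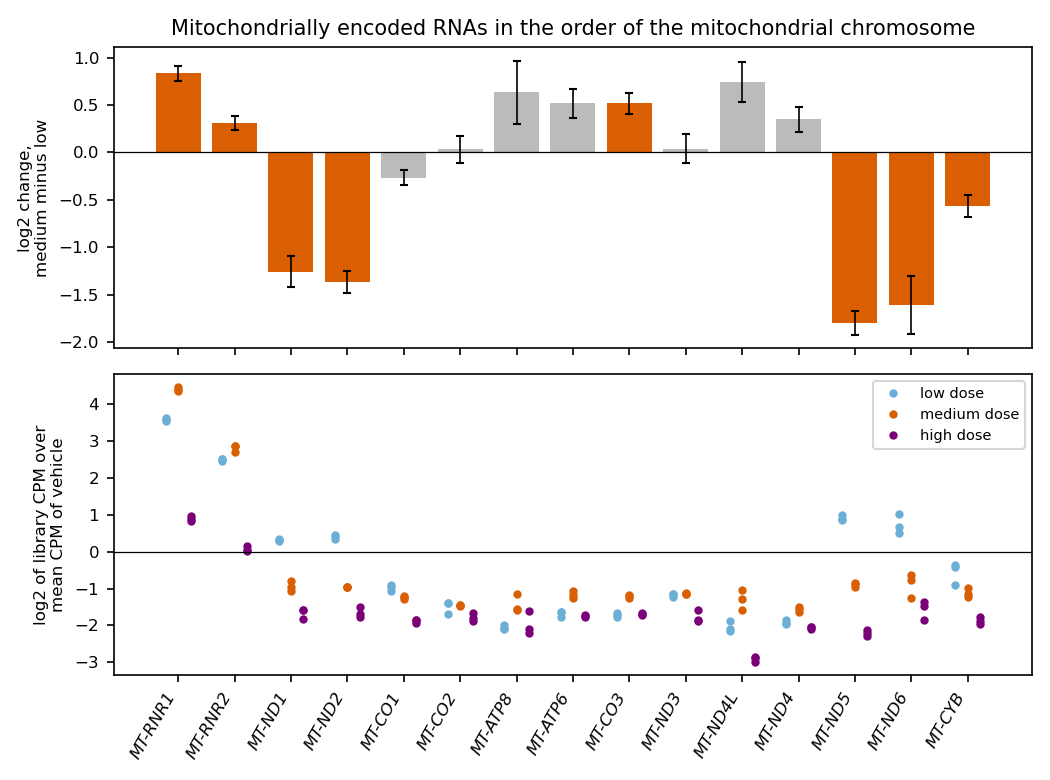
Top, log2 change from low to medium dose of each mitochondrially encoded RNA in chromosome order, with approximate standard errors, called genes in orange and others in grey. Bottom, log2 of each library's CPM over the mean CPM of vehicle, where MT-ND1, MT-ND2, MT-ND5 and MT-ND6 lie above 0 at the low dose and below 0 at the medium dose.

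Among genes that sense glucose, TXNIP fell. TXNIP, which brakes glucose uptake and answers the factor MondoA, had 59.8, 58.1 and 61.4 CPM in vehicle, 32.5, 33.3 and 31.2 CPM at the low dose, 22.9, 21.5 and 21.7 CPM at the medium dose and 155, 152 and 156 CPM at the high dose. The change from low to medium was -0.55 ± 0.06 (edgeR adjusted p = 1.11e-08), and the high-dose libraries lay above all others. MLXIP, the gene of MondoA itself, had 193, 179 and 189 CPM at the low dose and 156, 158 and 157 CPM at the medium dose (log2 change -0.25 ± 0.06, edgeR adjusted p = 0.0215), a call lost in 6 alternative fits. ARRDC4, a relative of TXNIP under the same factor, had 6.49, 5.58 and 4.76 CPM at the low dose and 4.31, 4.65 and 5.41 CPM at the medium dose, was not called and overlapped between doses. The E-box CACGTG was in 1 of the 5 promoter windows matched for the glucose-sensing list, beside 7.43% of all windows. Of the 2 called genes with a window, 0 held it. None of 20 genes of glucose uptake and glycolysis was called, with a median log2 change of 0.02. Of 14 hypoxia genes outside glycolysis, VEGFA alone was called: the angiogenic factor went from 84, 76.1 and 80.6 CPM to 118, 110 and 107 CPM (log2 change 0.48 ± 0.05, edgeR adjusted p = 3.89e-10).

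Cholesterol synthesis genes were lower by small amounts. Of 22 tested genes, 21 had a log2 change below 0 and 4 were called lower, with a list median of -0.16 beside 0.002 for all genes. SQLE, squalene epoxidase, had 721, 678 and 692 CPM at the low dose and 612, 595 and 623 CPM at the medium dose (log2 change -0.19 ± 0.04, edgeR adjusted p = 0.00147). HMGCS1, HMG-CoA synthase of the mevalonate pathway, had 236, 224 and 219 CPM at the low dose and 193, 182 and 176 CPM at the medium dose (log2 change -0.30 ± 0.07), and INSIG1, which holds the sterol sensor in the endoplasmic reticulum, 162, 159 and 151 CPM at the low dose and 142, 126 and 131 CPM at the medium dose (log2 change -0.24 ± 0.06). DHCR7, of the last step, changed by -0.21 ± 0.05. The number called ranged from 1 in the fit of the 18 Coptidis and Zizyphi libraries, and without low replicate 1, to 14 from the 6 libraries alone and 10 without the 4 libraries that stood apart. The call of INSIG1 was lost in 5 alternative fits, and those of SQLE and HMGCS1 in 2 each. The sterol element TCACNCCAC was in 1 of the 17 promoter windows matched for this list, beside 1.15% of all windows. Of the 3 called genes with a window, 0 held it. The exporter ABCG1 was called higher, from 6.89, 6.19 and 6.71 CPM to 10.6, 10.5 and 11.2 CPM (log2 change 0.71 ± 0.10, edgeR adjusted p = 2.16e-06), and the other 5 sterol export genes were not called.

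Of 14 Wnt targets and stem cell genes, EPHB3, LGR5, PROM1 and CD44 were called lower. EPHB3, a receptor that positions cells in the crypt, had 25.6, 26.6 and 26.5 CPM at the low dose and 19.8, 19.7 and 19.2 CPM at the medium dose (log2 change -0.42 ± 0.08, edgeR adjusted p = 0.000936). LGR5, the receptor that marks intestinal stem cells, had 34.8, 32.6 and 32.6 CPM at the low dose and 25.3, 28.4 and 27.9 CPM at the medium dose (log2 change -0.29 ± 0.06), while AXIN2, a direct Wnt target, had 76.8, 71.7 and 77.3 CPM at the low dose and 76.4, 74.6 and 81.4 CPM at the medium dose and was not called. The number called in this list was 1 to 3 without single libraries, the lowest without medium replicate 1, which also lost LGR5, and 2 in the fit of the 18 Coptidis and Zizyphi libraries. The call of PROM1 was lost in 10 alternative fits. FCGBP, a mucus protein, had 35.8, 32.5 and 33.4 CPM at the low dose and 24.7, 24.1 and 22.2 CPM at the medium dose (log2 change -0.51 ± 0.12) and was the 1 called gene of 15 goblet and secretory genes, 13 of which were below 0. TPPP3, which binds tubulin, had 24.3, 23.3 and 21.6 CPM at the low dose and 16.5, 15.3 and 14.1 CPM at the medium dose (log2 change -0.59 ± 0.13). BTG2, an antiproliferative p53 target, had 43.2, 42.8 and 42.7 CPM at the low dose and 29.8, 27.8 and 34.5 CPM at the medium dose (log2 change -0.49 ± 0.10). GABRP, a GABA receptor subunit, and AKAP7, an anchor of protein kinase A, changed by -0.50 ± 0.10 and -0.50 ± 0.11. In bulk samples, fewer cells of a type and less RNA per cell cannot be told apart. CHORDC1, a partner of HSP90, was the 1 called gene of 12 heat shock genes (log2 change -0.37 ± 0.07), and CLDN2, a pore-forming claudin, the 1 of 19 junction genes (log2 change -0.22 ± 0.04). The calls of FCGBP, AKAP7 and CLDN2 were lost in at least 1 alternative fit.

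A single gene was called in each of 4 further lists. ABCC3, an efflux pump, changed by 0.19 ± 0.05, HERPUD1, of protein degradation at the endoplasmic reticulum, by 0.24 ± 0.06, PMAIP1, which encodes the death-promoting NOXA, by 0.53 ± 0.13, and LPIN1, a phosphatidate phosphatase, by -0.30 ± 0.07. These 4 calls were each lost in at least 5 alternative fits. The p53 list held SESN2 higher and BTG2 lower of 17. HERPUD1 was the only call of 19 endoplasmic reticulum genes, and the chaperone HSPA5 had 367, 354 and 356 CPM at the low dose and 346, 357 and 321 CPM at the medium dose. The other 19 lists held 335 distinct tested genes, of which 0 were called by edgeR. Their medians ran from -0.14 to 0.15 on the log2 scale. They included DNA replication, mitosis, ribosomal proteins, interferon response, NF-kB targets, lysosome and autophagy, and enterocyte genes. Of all 217 called genes, 135 were in none of the lists.

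**Figure D4:**
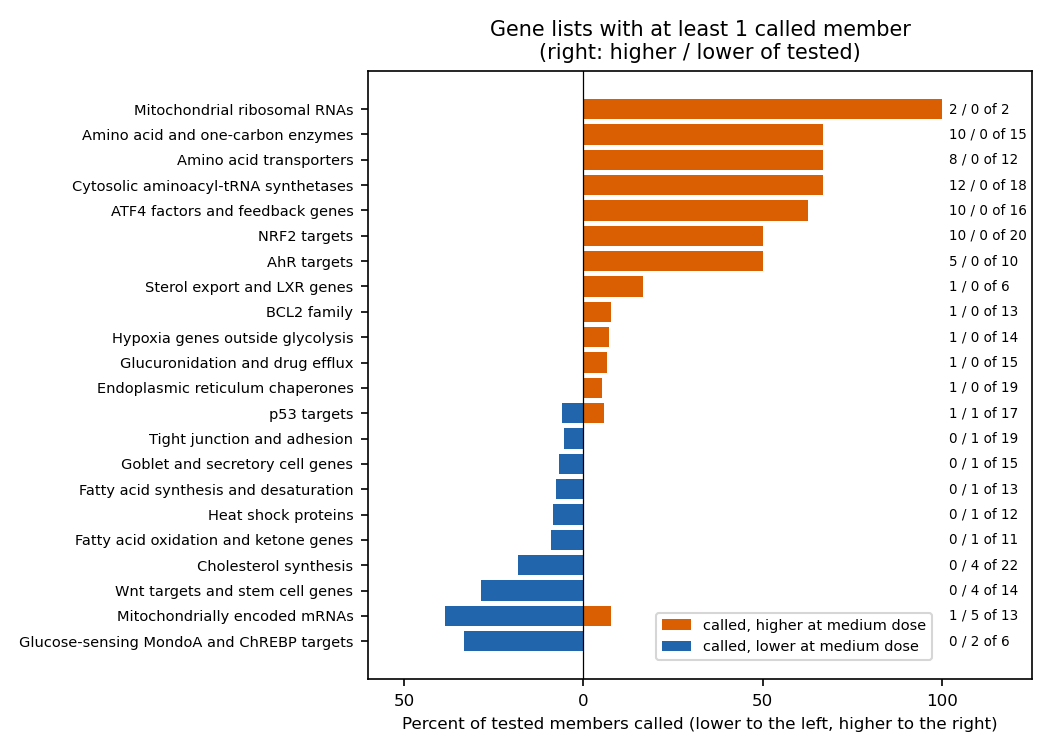
Bars give the percent of the tested members of each list called higher (orange, right) or lower (blue, left) at the medium dose, for the 22 lists with at least 1 called member, with the counts at the right edge. The 4 amino acid lists lie between 62.5 and 66.7%, beside 0.951% of all genes.

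The steps from low to medium and from medium to high dose were both 5-fold and were compared within the same fit; they share the medium libraries. The difference between the steps was called in 3387 genes (20.4%). Of the 158 genes higher at the medium dose, 100 rose more over the upper step. A called difference towards the lower step was seen in 13, most of which did not rise further over the upper step. The mean at the high dose lay further in the same direction in 147 of the 158. Of the 59 genes lower at the medium dose, 36 fell more over the upper step and 8 fell more over the lower, among them TXNIP, which rose over the upper step. The high-dose mean lay further down in 54 of the 59. CHAC1 and ATF4 were among those with no called difference, at -0.33 ± 0.20 and 0.01 ± 0.10 (lower minus upper step, log2). ASNS and CYP1A1 rose more over the upper step (-0.59 ± 0.10 and -0.82 ± 0.24). The mitochondrial ribosomal RNAs had the largest positive differences (lower minus upper step), 4.35 ± 0.14 for MT-RNR1 and 3.06 ± 0.13 for MT-RNR2. Both had lower means at the high than at the medium dose, with log2 changes of -3.52 and -2.74 over the upper step. MT-ND4L (2.37 ± 0.35) and RASL11A (2.31 ± 0.17) were also among the 5 largest, both with lower means at the high than at the medium dose. ALDH3A1, AKR1B10 and ALDH3A2 were among the 13 genes with a called difference towards the lower step. The high-dose means of AKR1B10 and ALDH3A2 did not exceed their medium-dose means. ALDH3A1 had 53.1, 49 and 47.7 CPM at the high dose, close to its medium-dose libraries. At the other end, LAMP3, CLGN, UNC5B, ITPKA and XAF1 had the largest differences towards the upper step, from -6.06 ± 0.75 to -3.52 ± 0.69. None of these 5 was called from low to medium dose. TXNIP changed sign between the steps, with a difference of -3.36 ± 0.11 (edgeR adjusted p = 8.17e-29).

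The same contrast was made in 2 other extracts. For Zizyphi Fructus, 0 genes (0.0%) were called by edgeR from 20 to 100 µg/mL, with 385 at an unadjusted p below 0.05 and 1 by DESeq2. For Coptidis Rhizoma 1425 genes had an unadjusted p below 0.05. About 830 of the genes tested would lie below 0.05 if none changed and the p-values were uniform. The difference between these 2 steps was called in 76 genes (0.458%), of which 72 were among the 217. That difference contains the same Coptidis Rhizoma step that gave the 217, so much of the overlap is built in. The 5 largest differences upwards were CYP1A1 at 3.02 ± 0.51 (nominal 95% interval 2.02 to 4.03), ADM2 at 1.75 ± 0.25, CHAC1 at 1.73 ± 0.22, DDIT4 at 1.24 ± 0.12 and ASNS at 1.24 ± 0.08 (interval 1.07 to 1.40). ASNS stood at 57.9 ± 1.29 (SD, n = 3) and 59 ± 3.51 (SD, n = 3) CPM at the low and medium dose of Zizyphi Fructus. Downwards they were MT-ND5 at -1.94 ± 0.18 (interval -2.28 to -1.59), MT-ND6 at -1.89 ± 0.43, MTND2P28 at -1.77 ± 0.23, MT-ND2 at -1.65 ± 0.16 and MT-ND1 at -1.43 ± 0.22. MT-RNR1 also differed (0.79 ± 0.12, edgeR adjusted p = 1.25e-05), as did TXNIP (-0.53 ± 0.09), whereas NQO1, LGR5 and MT-RNR2 did not pass.

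**Figure D5:**
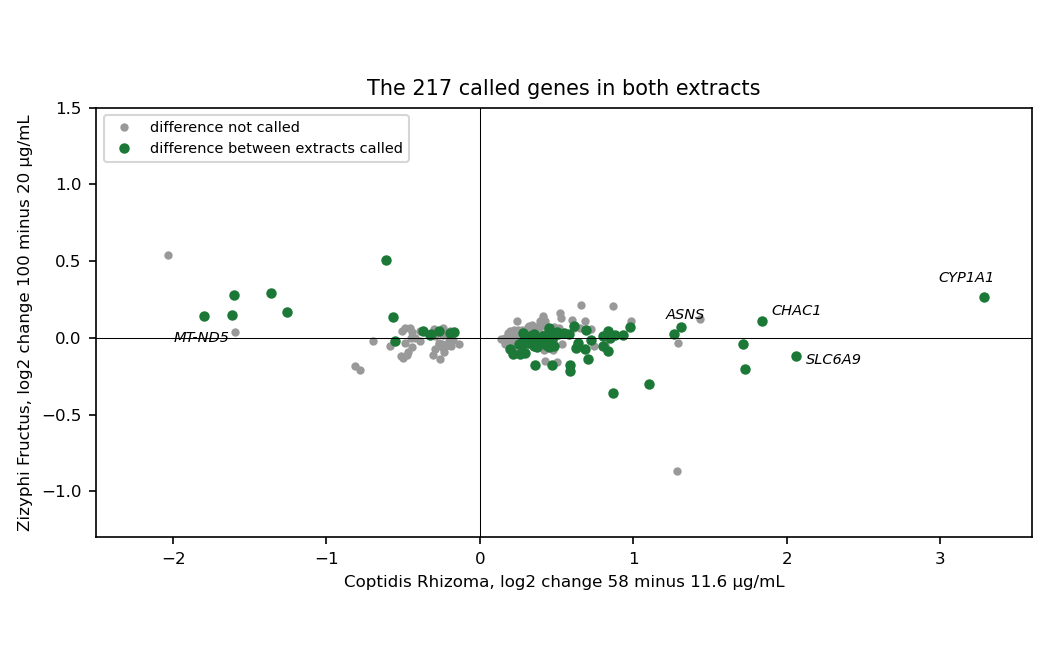
Each point is 1 of the 217 called genes, with its log2 change over the Coptidis Rhizoma step on the horizontal axis and over the Zizyphi Fructus step on the vertical axis, on equal scales. Genes whose difference between extracts was called are green, and all but a few points lie close to 0 vertically, as ASNS does at 0.02.

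Scutellariae Radix changed more genes over its step, 556 (3.35%), and the difference from Coptidis Rhizoma was called in 173 (1.04%), of which 76 were among the 217. Here too the overlap is partly built in, since the difference contains the same Coptidis Rhizoma step. The 5 largest differences towards Coptidis Rhizoma were ADM2 at 1.60 ± 0.24 on the log2 scale, CHAC1 at 1.54 ± 0.21, DDIT4 at 1.12 ± 0.11, JDP2 at 1.07 ± 0.16 and ASNS at 1.03 ± 0.08 (interval 0.86 to 1.19). Over the Scutellariae Radix step itself, ASNS (0.24), PSAT1 (0.22) and SLC7A5 (0.30) were also called higher, while ADM2, CHAC1, DDIT4 and JDP2 were not called. EPHB3 (-0.63), BTG2 (-0.56), GABRP (-0.86), TPPP3 (-0.58) and AKAP7 (-0.52) were called lower there too, with no called difference between extracts. LGR5 and FCGBP were not called there. CYP1A1, CYP1B1, ALDH3A1 and TIPARP rose more with Scutellariae Radix. CYP1A1 went there from 2.89 ± 0.959 (SD, n = 3) to 159 ± 7.54 (SD, n = 3) CPM, and its difference was -2.54 ± 0.24 (interval -3.02 to -2.07, edgeR adjusted p = 1.64e-10). The differences of the other 3 were -1.12 ± 0.11, -0.70 ± 0.13 and -0.71 ± 0.12. Of the NRF2 targets, GCLM (-0.55 ± 0.09), TXNRD1 (-0.35 ± 0.07) and AKR1B10 (-0.47 ± 0.10) also rose more with Scutellariae Radix, while NQO1 and SLC7A11 did not pass. Of the mitochondrial messengers, MT-ND5 differed from the Scutellariae Radix step by -1.92 ± 0.17, MT-ND6 by -1.77 ± 0.43 and MT-ND2 by -1.58 ± 0.16, and the nuclear pseudogene MTND2P28 differed by -1.67 ± 0.23. Doses of different extracts are matched in fold and not in strength, so these differences compare the steps as given. The 173 calls fell to 97 without Scutellariae low replicate 3 or medium replicate 1 and to 113 without Coptidis medium replicate 2.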

How the data were processed

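RNA sequencing libraries of HT29 cells were compared between the medium and low dose of Coptidis Rhizoma, 3 libraries a dose. The authors deposited expected counts per gene, for which the submitters' processing notes list RSEM 1.3.3, STAR 2.7.3a, Trim Galore 0.6.5, FastQC 0.11.9 and the build hg38. The annotation release is not given in the sources used here. The deposited counts were not scaled, 8.755% of values were not whole and were rounded, and 210 columns of other samples in the table were not used. Gene positions are those of GENCODE 29.

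Counts were fitted with edgeR 4.0.16 (R 4.3.3): TMM scaling, filterByExpr (16609 of 60675 genes kept), robust quasi-likelihood F tests with a coefficient for each of 20 groups of the 60 libraries (11.1 to 34.4 M counts each, 40 residual degrees of freedom), and Benjamini-Hochberg adjustment over all genes tested, called below 0.05. The 5 further comparisons (the steps of 2 other extracts, and 3 differences between steps) came from the same fit. CPM use TMM-scaled library sizes. Standard errors are approximate, the absolute log2 change divided by the square root of F, and intervals are nominal. The fit was tested on simulated data with 50 genes each changed by 1.25-, 1.5-, 2- and 3-fold at the medium dose. Of these, 28, 48, 50 and 50 were recovered, with 10 false calls among 16214 genes. The simulation used 1 dispersion for all genes and no other group differences, and changed only genes of at least 5 CPM. Changes of 1.25-fold were often missed there, so a list with no call may hold small changes. No 2 libraries were copies: the smallest chi-square per gene of any pair was 2.003.

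Alternatives were DESeq2 1.42.0, its size factors, no low-count filter, fits on fewer groups, the replicate number as a block and single libraries left out. Chosen after seeing the data were fits without mitochondrial counts, without the 4 libraries that stood apart (vehicle 1, fresh ginger low 1, ginger high 2, Zizyphi high 3), and of the 9 Coptidis libraries with the block.

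Named by rule were the 12 largest called changes in each direction with at least 5 CPM in the higher group and no overlap, up to 3 members of each of 41 lists by smallest p, the 5 largest in each direction of each difference, both mitochondrial ribosomal RNAs and CYP1A1. Some genes that the rule selects are not reported here. Other genes were named as called members of a list or after their values were seen. The comparison, lists and rule were chosen with earlier results of these data known. Lists received no test of their own.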

Additional observations from a re-analysis of the deposited data

Results flagged for a closer look

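Differences between extracts over their 5-fold steps were tested as interaction terms in edgeR, and the results below passed at an adjusted p below 0.05. From the Zizyphi Fructus step, 76 genes differed, and from the Scutellariae Radix step 173. Against Zizyphi Fructus, the log2 difference was 3.02 for CYP1A1, 1.75 for ADM2, 1.73 for CHAC1, 1.24 for DDIT4 and 1.24 for ASNS. In the other direction it was -1.94 for MT-ND5, -1.89 for MT-ND6, -1.77 for MTND2P28, -1.65 for MT-ND2 and -1.43 for MT-ND1. Against Scutellariae Radix, the log2 difference was 1.60 for ADM2, 1.54 for CHAC1, 1.12 for DDIT4, 1.07 for JDP2 and 1.03 for ASNS. In the other direction it was -2.54 for CYP1A1, -1.92 for MT-ND5, -1.77 for MT-ND6, -1.67 for MTND2P28 and -1.58 for MT-ND2. Both comparisons use the same Coptidis Rhizoma libraries, so they are not independent of each other. The doses of the extracts are matched in fold only. Groups of 3 libraries are too small for a formal check, within each group, of single libraries that stand apart. The 4 libraries described as standing apart were seen on the second principal component, and counts without them are given below.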

How the results depend on the processing

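The 217 genes of the dose comparison became 113 in the 18 Coptidis and Zizyphi libraries, 481 in the 6 libraries alone (61.1% of them higher, against 72.8% of the 217) and 367 without the 4 libraries that stood apart. They ranged from 144 to 165 when single libraries were left out. With no filter on low counts the number was 277, of which 63.9% were higher. The difference from the Zizyphi step (76 genes) became 151 without the low-count filter, 119 in the groups compared alone and 126 without the 4 libraries. The difference from the Scutellariae step (173) became 304 in the groups compared alone and 323 without the 4 libraries, and ranged from 97 to 169 without single libraries. The Zizyphi step (0) gave 1 gene by DESeq2 and 63 without the filter, and the Scutellariae step (556) gave 306 to 440 without single libraries. In the 18 libraries, called members numbered 1 for NRF2 targets, 5 for transporters, 7 for synthetases, 1 for cholesterol synthesis and 2 for Wnt targets. Cholesterol synthesis gave 2 without the filter, 8 in the 9 Coptidis libraries, 14 in the 6 libraries and 10 without the 4 libraries, and Wnt targets gave 2 with DESeq2 size factors. Without single libraries, NRF2 targets ranged from 5 to 9, cholesterol synthesis from 1 to 3 and Wnt targets from 1 to 3. The cause of these changes was not tested.

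Of 52 called genes named by rule, 33 kept their call and direction in every alternative run, and 19 lost the call in at least 1. No alternative reversed a direction that was called. Same-numbered libraries of the 2 doses correlated at 0.075, 0.048 and 0.074 in their deviations from the group means, too low to treat the numbers as pairs, although each library correlated best with its own number. With the number as a replicate block, 219 genes were called. Depth limits genes of low level such as NUPR1 and SLC6A9, and 1 cell line, 1 time point and 3 libraries a group limit what the comparison covers.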

Other observations

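Of the 135 called genes in none of the lists, the following were chosen after their values were seen. ALDH1A3, which makes retinoic acid, went from 26.8, 25.5 and 28.3 CPM at the low dose to 40.2, 44.9 and 45.4 CPM at the medium dose (log2 change 0.70 ± 0.07), and the difference from the Scutellariae Radix step was -1.01 ± 0.10 (edgeR adjusted p = 2.21e-10). ULBP1, a stress ligand seen by natural killer cells, went from 1.07, 0.766 and 1.47 CPM to 3.41, 3.75 and 3.68 CPM (log2 change 1.73 ± 0.20). ASS1, of arginine synthesis, went from 15.6, 17.6 and 17.7 CPM to 26.4, 24.8 and 25.4 CPM (log2 change 0.59 ± 0.08), and EIF4EBP1, the translation repressor under mTORC1, from 17.2, 19.5 and 18.6 CPM to 26.2, 32 and 28.6 CPM (log2 change 0.65 ± 0.14). The secreted factors FGF19, an intestinal hormone that restrains bile acid synthesis, and EREG, a ligand of the EGF receptor, rose by 0.34 ± 0.07 and 0.38 ± 0.06. ALAS1, the first enzyme of haem synthesis, rose by 0.35 ± 0.05.

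Among the genes called lower, NOX1, the superoxide-producing oxidase of colon epithelium, had 18.1, 16.5 and 16.5 CPM at the low dose and 13.1, 10.9 and 12.8 CPM at the medium dose (log2 change -0.47 ± 0.09). AGR3, a disulfide isomerase of secretory epithelium, had 11.4, 11.8 and 10 CPM and 7.91, 8.01 and 7.9 CPM (log2 change -0.49 ± 0.12). ITGA1, a collagen receptor, had 78.4, 77.1 and 78.5 CPM and 59.6, 56.1 and 55.8 CPM (log2 change -0.45 ± 0.10), and the mucin gene MUC13 changed by -0.26 ± 0.05. In each of these genes the libraries of the doses did not overlap.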
